A study of Mus musculus with 20 samples.

Results

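Iron handling and metallothionein genes were followed in mouse liver across 5 dose groups. The set has 10 genes, Hamp, Hamp2, Slc40a1, Tfrc, Tfr2, Slc39a14, Fth1, Ftl1, Mt1 and Mt2, taken from the probe table by symbol with every probe kept. That gave 10 of 21450 genes, with 17 of 30146 probes. Of these, 12 probes of 9 genes held enough counts to be tested, among 14122 tested probes of 10101 genes. The probe of Tfr2 and 1 further probe each of Hamp2, Slc39a14, Mt1 and Mt2 were too low to test, and their counts are given below.

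The livers came from male Balb-C mice aged 10 to 12 weeks given a daily oral gavage over 7 days. The treated mice received Nafion BP2, a fluorinated byproduct of the manufacture of an ion exchange membrane, at 0.03, 0.3, 3 or 6 mg/kg per day. Control mice received the vehicle at 0 mg/kg, which the protocols call deionized water and the sample titles of the controls call DMSO (the vehicle cannot be told from these). Each group had 4 mice and each library came from a separate animal. RNA was measured with TempO-Seq, in which pairs of short detector oligonucleotides are ligated on their target RNA, amplified and counted.

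Libraries held between 6823518 and 10310931 counts. In the libraries 3 counts, taken here as the floor, stood for 0.251 to 0.511 CPM, counts scaled to libraries of 1000000 after TMM scaling (trimmed mean of M values). Hepatocyte markers were present in every library, at 23908 to 46142 CPM summed over 13 probes. The libraries of dose_3 replicate 4 and dose_6 replicate 4 stood apart from their groups, with a mean correlation to the rest of the group of 0.892 and 0.949 against at least 0.954 in the other 18. All control and 0.03 mg/kg libraries lay in plate row A, and all 3 and 6 mg/kg libraries in row B. The 0.3 mg/kg group had replicate 4 in row B and the other 3 in row A, so row and dose cannot be told apart for the higher doses against control. The comparison of 6 with 3 mg/kg lay wholly within row B.

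Iron in the body is held in balance by hepcidin, the peptide hormone that hepatocytes make from Hamp. Hepcidin binds ferroportin, the iron exporter encoded by Slc40a1, and causes its degradation, so that high hepcidin keeps iron inside enterocytes, macrophages and hepatocytes. Hamp is switched on by iron through the BMP-SMAD pathway and by inflammation through IL-6 and STAT3. Inside cells, iron regulatory proteins bind stem-loops called iron response elements when iron is scarce. A stem-loop in the 5' UTR then blocks translation, as in the ferritin mRNAs, and stem-loops in the 3' UTR protect the mRNA of Tfrc from decay. Metallothioneins are small cysteine-rich proteins that bind zinc and copper and are induced by metals through MTF1 and by glucocorticoids.

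The iron response elements are shown first because they set the member genes that carry one apart from those that do not. Transcripts of GENCODE M21 were searched on the sense strand for an unpaired C followed by 5 bases, the loop CAGTGN and 5 bases that pair with the first 5, G-T pairs allowed. The match is 17 bases long, and capitals mark the loop. Sequences are of the GRCm38 reference, written 5′ to 3′ along the mRNA with T for U. Tfrc held 4 matches, all in exon 19 of Tfrc-201 in the 3' UTR on the plus strand, at chr16:32631225-32631241, chr16:32631604-32631620, chr16:32631669-32631685 and chr16:32631716-32631732.
Tfrc 1: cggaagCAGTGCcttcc
Tfrc 2: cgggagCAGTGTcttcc
Tfrc 3: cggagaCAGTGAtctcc
Tfrc 4: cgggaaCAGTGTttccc
The storage genes and the exporter held 1 match each in exon 1, in the 5' UTR, at chr19:9982738-9982754 on the plus strand for Fth1, at chr7:45459785-45459801 on the minus strand for Ftl1 and at chr1:45925471-45925487 on the minus strand for Slc40a1.
Fth1: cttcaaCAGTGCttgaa
Ftl1: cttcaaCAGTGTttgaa
Slc40a1: cagctaCAGTGTtagct
The search found no match in the UTRs of Hamp, Hamp2, Tfr2, Slc39a14, Mt1 or Mt2. Over the annotation, 31 of 20883 genes with a 5' UTR held a match (0.148%), and 129 of 21659 genes with a 3' UTR did (0.596%). Tfrc was the 1 gene with 4 or more.

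Hamp and Hamp2 are neighbouring copies, 17.7 kb apart on the minus strand of chromosome 7. Their transcripts Hamp-201 and Hamp2-201, of 410 and 420 bases, were 92.4% identical over the alignment, and the 250 bases before their RefSeq starts were 89.7% identical. The stretches below show where the copies differ in motifs named for the BMP and the STAT3 response. They are 80 bases each from the RefSeq table of GRCm38.p6, written 5′ to 3′ along the gene, at chr7:30944087-30944166 for Hamp and chr7:30924236-30924315 for Hamp2. They begin 137 and 134 bases before the start. Capitals mark GGCGCC, the core of the BMP response element, and TTCTTGGAA, a STAT motif.
Hamp: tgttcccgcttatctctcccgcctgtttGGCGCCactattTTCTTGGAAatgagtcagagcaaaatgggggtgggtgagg
Hamp2: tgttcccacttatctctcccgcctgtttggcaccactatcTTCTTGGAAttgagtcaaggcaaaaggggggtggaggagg
Both strands of the 250 bases were searched, and the motifs do not overlap each other. Hamp held 1 of each motif, and Hamp2 held 1 TTCTTGGAA and 0 GGCGCC. Of 32851 promoters of this length, 3149 held GGCGCC (9.59%) and 120 held TTCTTGGAA (0.365%). A match is a description of the letters, not a binding site shown by these data.

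Levels of all tested member probes are plotted by dose.

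**Figure D1:**
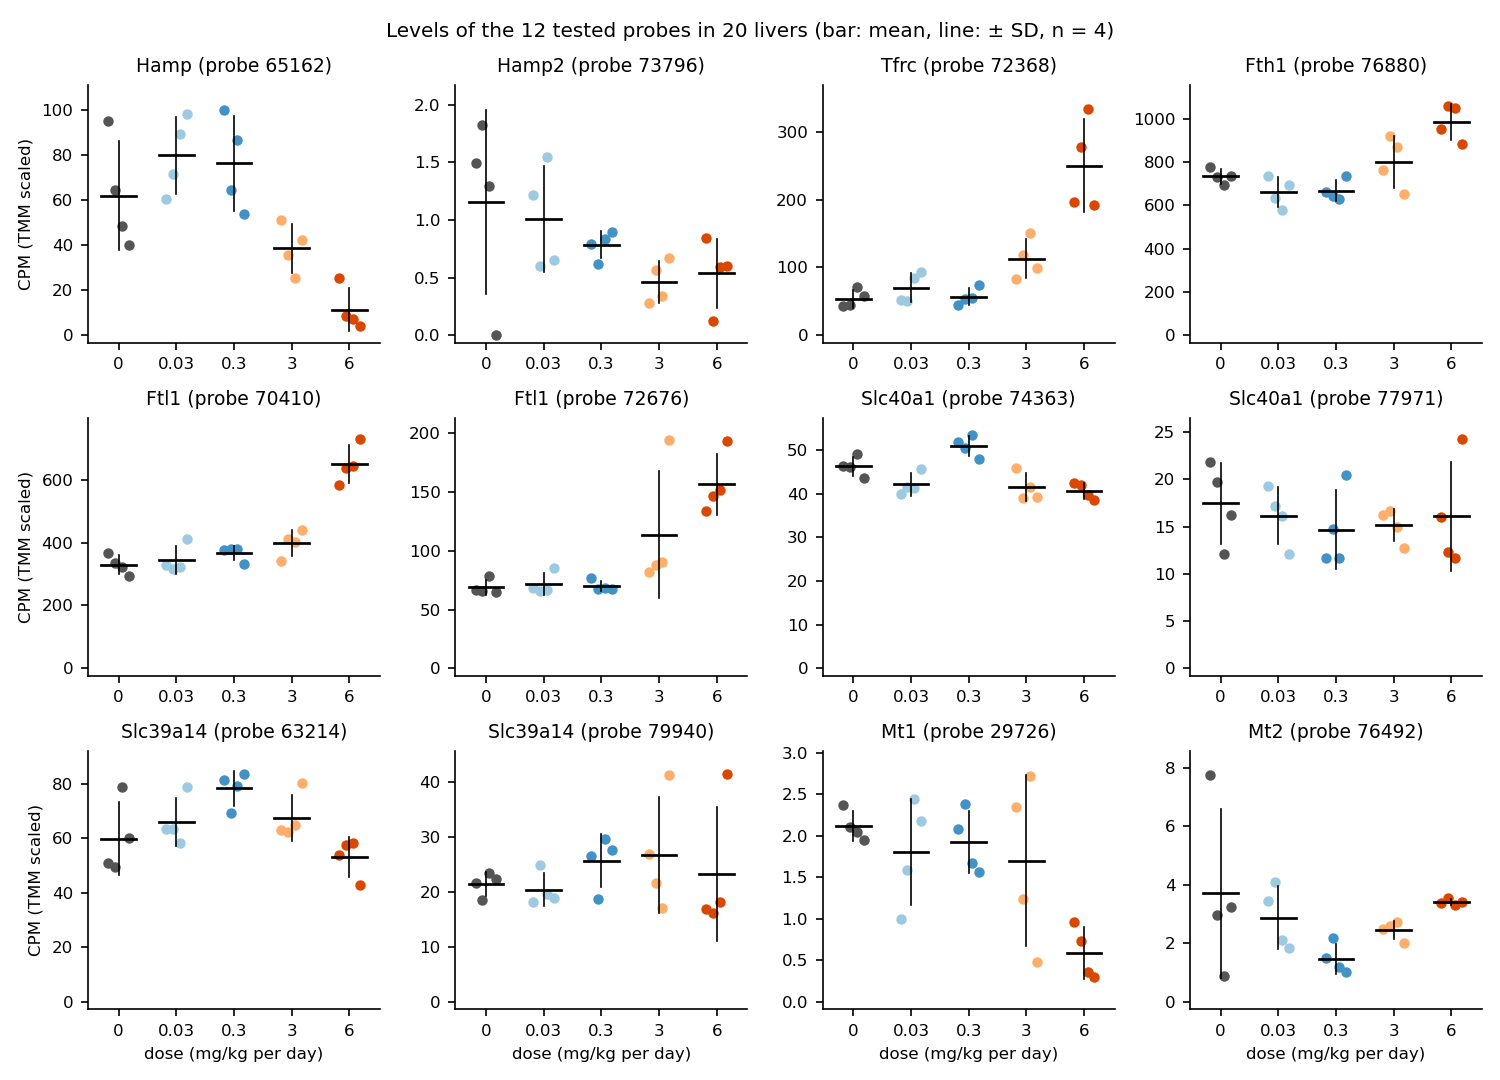
Levels of the 12 tested member probes, in CPM after TMM scaling on a linear axis from 0, against dose in mg/kg per day; points are mice, bars the group mean and lines ± SD (n = 4). Hamp was at 3.90 to 25.6 CPM at 6 mg/kg against 39.9 to 94.98 CPM in controls, and Tfrc was at 192 to 334 CPM against 42.7 to 70.4 CPM.

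The first comparisons ask what the lower doses did to these genes. At 0.03 mg/kg, 0 of 12 member probes were called, that is, had a Benjamini-Hochberg adjusted p under 0.05 in the edgeR quasi-likelihood test, against a background of 0% of all 14122 probes. Of the 12, 0 had an unadjusted p under 0.05, against 3.24% of all probes, and DESeq2 called 0 of them. In 0 of 12 did the treated and control ranges lie apart, as they did in 3.51% of all probes. The member probe changes had a median log2 of -0.09, beside -0.0040 for all probes. At 0.3 mg/kg, 0 of 12 were called by edgeR and by DESeq2, with a background of 0%. An unadjusted p under 0.05 was seen for 2, Slc39a14 and Mt2, against 8.32% of all probes, and the median log2 was 0.048 beside 0.00045. Ranges lay apart in 0 of 12, against 6.71% of all probes.

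At 3 mg/kg, 1 of 12 member probes was called, Tfrc, which rose, while 1.49% of all probes were called and 1.11% rose. Ranges lay apart from the controls in 2 of 12, Tfrc and 1 probe of Ftl1, against 7.97% of all probes. At 6 mg/kg, 6 of 12 were called where the background was 20.3%. The 4 that rose were Tfrc, Fth1 and both probes of Ftl1, where 11.6% of all probes rose, and the 2 that fell were Hamp and Mt1, where 8.73% fell. Ranges lay apart in 7 of 12, these and a probe of Slc40a1, against 26.8% of all probes. The median log2 of the 12 was -0.11 at 6 mg/kg beside 0.01 for all probes, since the members went both ways. Between 3 and 6 mg/kg, 3 of 12 were called where the background was 6.73%, with Tfrc and 1 probe of Ftl1 higher (3.96% of all probes) and Hamp lower (2.77%) at 6 mg/kg. Ranges lay apart in 4 of 12, against 11.1% of all probes. The higher doses share the same 4 control libraries.

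Without dose_3 replicate 4 and dose_6 replicate 4 the calls were 1 at 3 mg/kg, 6 at 6 mg/kg and 4 between 3 and 6 mg/kg. With plate row as a covariate, which the 0.3 mg/kg group alone separates from dose, 0 were called at 3 mg/kg and 1 at 6 mg/kg, a probe of Ftl1. That covariate left 3 calls between 3 and 6 mg/kg.

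**Figure D2:**
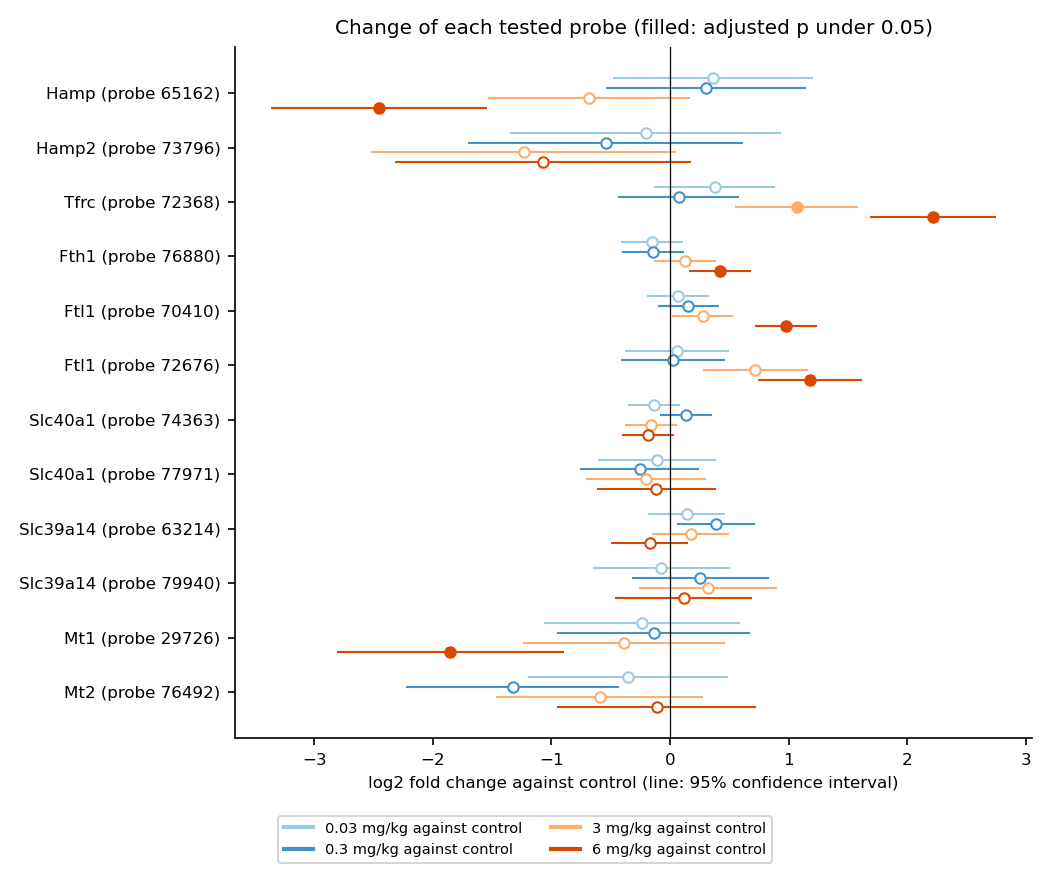
Change of each tested member probe against control as a log2 fold change with its 95% confidence interval, by dose; filled points are called (edgeR adjusted p under 0.05). At 6 mg/kg the filled points lie at -2.45 for Hamp, -1.85 for Mt1, 0.42 for Fth1, 0.98 and 1.18 for Ftl1 and 2.22 for Tfrc.

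Hamp, the hepcidin gene, fell at 6 mg/kg (chr7:30942368-30944032, minus strand, GRCm38). Control livers read 94.98, 64.6, 48.3 and 39.9 CPM at probe 65162, which gave 307 to 761 counts. At 6 mg/kg the livers read 25.6, 8.65, 7.33 and 3.90 CPM, from 39 to 213 counts. All 4 lay below every control, and replicate 1 lay well above the other 3 of its group. Group means were 61.9 ± 24.3 CPM in controls and 11.4 ± 9.68 CPM at 6 mg/kg (SD, n = 4). The log2 fold change was -2.45 (SE 0.43, 95% interval -3.36 to -1.54, edgeR adjusted p = 0.00066), or 5.47-fold lower. In bulk liver, fewer cells of a type and less RNA per cell cannot be told apart.

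The lower doses of Nafion BP2 left Hamp in or near the control range. At 0.03 mg/kg it read 60.2, 71.5, 89.3 and 98.2 CPM, and at 0.3 mg/kg 100.1, 64.3, 86.8 and 53.9 CPM. Both groups overlapped the controls, with log2 changes of 0.37 (SE 0.40) and 0.30 (SE 0.40) that did not pass. At 3 mg/kg it read 51.0, 35.6, 25.4 and 42.2 CPM, which overlapped the controls at their lower end, with a log2 change of -0.68 (SE 0.41, edgeR adjusted p = 0.523). That value was -0.37 without control replicate 1 and -0.046 with plate row as a covariate. In order of group means Hamp ran from 6 mg/kg through 3 mg/kg, control and 0.3 mg/kg to 0.03 mg/kg, and each neighbour in that order overlapped the next.

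From 3 to 6 mg/kg Hamp fell by 1.77 on the log2 scale (SE 0.43, edgeR adjusted p = 0.0198), with the ranges touching at 25.4 and 25.6 CPM. That call was lost without dose_3 replicate 1, dose_6 replicate 2 or dose_6 replicate 3 (adjusted p of 0.0695, 0.0627 and 0.0622), without both libraries that stood apart (-1.42, adjusted p = 0.052), without a count filter (adjusted p = 0.058) and in a fit on the 8 libraries compared (adjusted p = 0.149). The log2 change against control was -2.14 (adjusted p = 0.00254) without the libraries that stood apart and -3.23 without dose_6 replicate 1. With plate row as a covariate it was -1.82 (adjusted p = 0.178). The 13 hepatocyte marker probes summed to 37844 to 46142 CPM in controls and 23908 to 30304 CPM at 6 mg/kg, and none was at 0. Of 8 markers 1 rose, Tat (log2 1.20), and 3 fell, Alb (-0.82), Cyp2e1 (-0.81) and Serpina1a (-1.69). At this dose 20.5% of all genes were called at their most counted probe. Ttr, Apoa1 and Cps1 were at -0.08, -0.09 and -0.13, and the list median was -0.19. Further probes of Apoa1 and Cyp2e1 fell, at -0.62 (edgeR adjusted p = 0.0172) and -0.60 (adjusted p = 0.0156). Another of Cyp2e1 at -0.59 (adjusted p = 0.0796) and another of Ass1 at -0.26 (adjusted p = 0.465) did not pass. The summed level was thus lower at 6 mg/kg without overlap, while single markers differed. The part of hepatocyte content in the fall of Hamp was not tested.

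Hamp2, the neighbouring copy (chr7:30922372-30924681, minus strand), gave few counts. Probe 73796 held 12, 13, 12 and 0 counts in controls, 11, 6, 14 and 6 at 0.03 mg/kg and 8, 6, 10 and 8 at 0.3 mg/kg. It held 2, 5, 2 and 7 counts at 3 mg/kg and 7, 1, 5 and 6 at 6 mg/kg. Control replicate 4 held 0 counts, and the control range overlapped that of every other group. The log2 change was -1.23 (SE 0.62, edgeR adjusted p = 0.428) at 3 mg/kg and -1.07 (SE 0.60, 95% interval -2.32 to 0.18, adjusted p = 0.209) at 6 mg/kg. Without control replicate 4 the latter was -1.46 (adjusted p = 0.0387), so that 1 library decides whether Hamp2 is called. Probe 63469 of Hamp2 held 4 counts over all 20 libraries. Because the copies are near-identical, how the authors' counting divided reads between Hamp and Hamp2 is uncertain.

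Slc40a1, the gene of the iron exporter ferroportin on which hepcidin acts (chr1:45908068-45926523, minus strand), changed little. Controls read 46.3, 46.2, 49.0 and 43.6 CPM at probe 74363, and livers at 6 mg/kg read 42.5, 41.9, 39.8 and 38.5 CPM. All 4 at 6 mg/kg lay below every control. The log2 change was -0.19 (SE 0.11, 95% interval -0.41 to 0.04, edgeR adjusted p = 0.219) and did not pass. At 0.03 mg/kg the probe read 39.8 to 45.7 CPM, at 0.3 mg/kg 47.8 to 53.4 CPM and at 3 mg/kg 39.0 to 45.9 CPM, so the group means did not follow the dose.

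Probe 77971 of Slc40a1 read 12.1 to 21.8 CPM in controls and 16.0, 12.3, 11.7 and 24.3 CPM at 6 mg/kg, a log2 change of -0.11 (SE 0.24, adjusted p = 0.77). Its highest reading of the 20 libraries was that of dose_6 replicate 4, which stood apart. Kupffer cells, the liver macrophages, also express ferroportin. Of 9 tested Kupffer cell markers 0 rose and 2 fell at 6 mg/kg, where 20.5% of all genes were called at their most counted probe. Those that fell were C1qb at a log2 of -1.18 and Folr2 at -1.27, and the list median was -0.48. Their summed level over 14 probes was 139 to 199 CPM in controls and 89.0 to 143 CPM at 6 mg/kg. Marco and 1 of 2 Csf1r probes were at 0 in all 4 libraries at 6 mg/kg. Their control means, 0.164 and 0.292 CPM, already lay under the floor, so no loss can be read from them. The other Csf1r probe had means of 10.4 CPM in controls and 8.09 CPM at 6 mg/kg. The part of these cells in the Slc40a1 values was not tested.

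Tfrc, the transferrin receptor that brings transferrin-bound iron into cells (chr16:32608920-32632794, plus strand), rose at 3 and 6 mg/kg. Controls read 42.7, 43.8, 70.4 and 58.3 CPM at probe 72368, and livers at 3 mg/kg read 83.0, 118, 151 and 99.5 CPM. At 6 mg/kg they read 197, 278, 334 and 192 CPM. The 3 groups did not overlap one another. Group means were 53.8 ± 13.2, 113 ± 29.2 and 250.2 ± 68.5 CPM (SD, n = 4).

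Against control, Tfrc rose by a log2 of 1.07 at 3 mg/kg (SE 0.25, edgeR adjusted p = 0.0298), or 2.10-fold, and by 2.22 at 6 mg/kg (SE 0.26, adjusted p = 3.94e-06), or 4.65-fold. From 3 to 6 mg/kg it rose by 1.15 (SE 0.25, adjusted p = 0.00904). The lower doses were not called: livers at 0.03 mg/kg read 52.5, 50.2, 84.0 and 92.9 CPM and at 0.3 mg/kg 43.7, 53.7, 55.0 and 74.0 CPM, with log2 changes of 0.38 (SE 0.25) and 0.07 (SE 0.25). The 0.03 mg/kg group overlapped both the controls and the 3 mg/kg group.

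The call of Tfrc at 3 mg/kg was lost without control replicate 1, 2 or 4 or dose_3 replicate 2 or 3, with log2 changes of 0.93 to 1.12 and adjusted p of 0.0621 to 0.113. It was also lost in the fit on 8 libraries (1.08, adjusted p = 0.109) and with plate row (0.53, adjusted p = 0.918), and held without the libraries that stood apart (1.12, adjusted p = 0.0404). The change at 6 mg/kg was 1.67 with plate row (adjusted p = 0.0613).

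Tfrc is abundant in red cell precursors and dividing cells, so their markers are given beside it. Among all genes 20.5% were called at their most counted probe at 6 mg/kg. Of 3 tested erythroid markers 1 rose at 6 mg/kg, Alas2, the heme synthesis enzyme of red cell precursors, at a log2 of 1.21 (edgeR adjusted p = 0.0439). The hemoglobin genes Hba-a2 and Hbb-bt had means of 11.8 and 16.8 CPM in controls and 13.2 and 8.64 CPM at 6 mg/kg. Summed erythroid markers were at 24.5 to 55.0 CPM in controls, 37.1 to 42.1 CPM at 3 mg/kg and 24.4 to 44.2 CPM at 6 mg/kg, which overlap, and Epb42 was at 0 in all libraries. Of 7 tested proliferation markers 6 rose and 0 fell at 6 mg/kg, with Mki67 at 3.08 and Top2a at 3.21. Their summed level went from 40.1 to 45.9 CPM in controls to 50.1 to 95.2 CPM at 3 mg/kg and 119 to 153 CPM at 6 mg/kg. Over these 3 groups the order was that of Tfrc. At 0.03 and 0.3 mg/kg the median sums were 37.4 and 36.8 CPM, below the 41.9 CPM of controls. At both doses 0 of 7 proliferation markers were called. The sums there rested largely on the most counted probe of Pcna, with means of 25.4 and 22.7 CPM against 28.5 CPM in controls. The Tfrc means at these doses, 69.9 and 56.6 CPM, lay above the control mean of 53.8 CPM, with overlapping ranges. Neither Tfrc change was called, so whether Tfrc and these markers differ at the lower doses cannot be read from these values. The part of dividing cells in the rise of Tfrc was not tested.

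**Figure D3:**
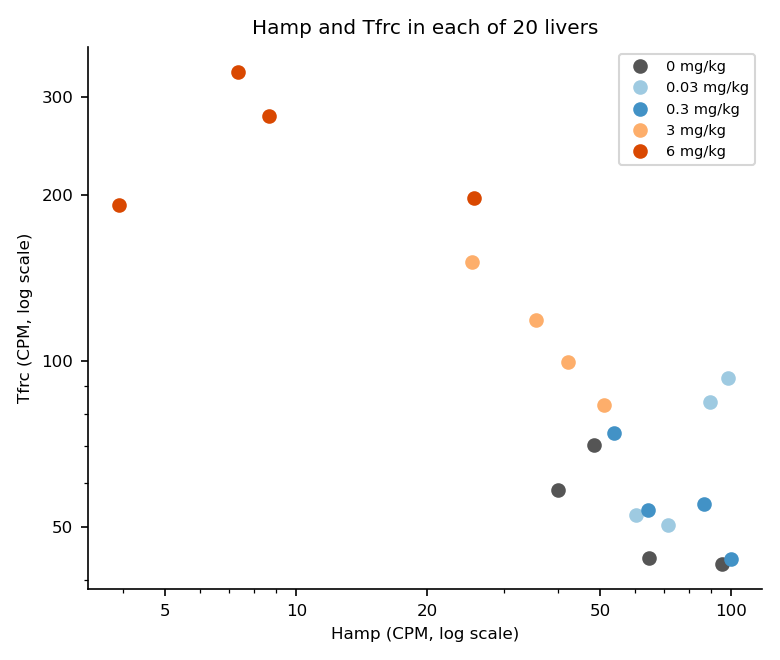
Tfrc against Hamp in each of the 20 livers, both in CPM on log axes, coloured by dose. The 4 livers at 6 mg/kg sit at Hamp of 3.90 to 25.6 CPM and Tfrc of 192 to 334 CPM, apart from the other 16, while control, 0.03 and 0.3 mg/kg livers mix.

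In the plot of Tfrc against Hamp the 6 mg/kg livers lie at low Hamp and high Tfrc, while at 0.03 mg/kg the means of both were above those of the controls, with overlapping ranges. Within the 6 mg/kg group low Hamp did not go with high Tfrc throughout: dose_6 replicate 4 had the lowest Hamp, 3.90 CPM, and also the lowest Tfrc, 192 CPM. That library was 1 of those that stood apart.

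Tfr2 encodes the second transferrin receptor, a hepatocyte sensor that feeds into hepcidin (chr5:137569840-137587481, plus strand). Its probe 74934 held 5, 4, 4 and 2 counts in controls, 7, 6, 5 and 8 at 0.03 mg/kg and 9, 9, 5 and 5 at 0.3 mg/kg. It held 2, 1, 1 and 6 counts at 3 mg/kg and 5, 3, 8 and 0 at 6 mg/kg. The sum over 20 libraries was 95 counts, with 6 of 20 libraries at or under the floor of 3, so Tfr2 was not tested.

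Slc39a14 encodes ZIP14, which carries iron that is not bound to transferrin, and also zinc and manganese, into hepatocytes (chr14:70303469-70351425, minus strand). Probe 63214 read 50.9, 49.5, 78.8 and 60.2 CPM in controls and 81.4, 69.2, 79.4 and 83.7 CPM at 0.3 mg/kg. It read 54.0, 57.7, 58.3 and 42.7 CPM at 6 mg/kg. These groups overlapped the controls. The log2 change was 0.39 at 0.3 mg/kg (SE 0.16, edgeR adjusted p = 0.544) and -0.17 at 6 mg/kg (SE 0.16, 95% interval -0.50 to 0.15, adjusted p = 0.456).

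From 3 mg/kg, where Slc39a14 read 63.1, 62.3, 64.9 and 80.2 CPM, to 6 mg/kg the change was -0.35 (SE 0.16, adjusted p = 0.184); the ranges did not overlap but the test did not pass. Probe 79940 read 18.4 to 23.4 CPM in controls and 16.9, 16.2, 18.1 and 41.5 CPM at 6 mg/kg. Its log2 change of 0.12 (SE 0.28, adjusted p = 0.796) rests on dose_6 replicate 4, and was -0.32 without the 2 libraries that stood apart. Probe 64569 held 11 counts over all libraries.

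Ftl1 and Fth1, the light and heavy chains of ferritin, the protein shell that stores iron, rose at 6 mg/kg. For Ftl1 (chr7:45457944-45459884, minus strand) probe 70410 read 366, 335, 323 and 295 CPM in controls and 583, 638, 645 and 730.1 CPM at 6 mg/kg. The groups were far apart. Means of 329.7 ± 29.4 CPM in controls and 649 ± 60.6 CPM at 6 mg/kg (SD, n = 4) gave a log2 change of 0.98 (SE 0.13, edgeR adjusted p = 1.42e-05), or 1.97-fold.

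At 3 mg/kg the probe read 343, 409.9, 402 and 441 CPM, which overlapped the controls, with a log2 change of 0.27 (SE 0.12, adjusted p = 0.376). From 3 to 6 mg/kg Ftl1 rose by 0.70 (SE 0.13, adjusted p = 0.00301) with no overlap. At 0.03 mg/kg it read 329, 317, 323 and 413 CPM and at 0.3 mg/kg 376, 380.2, 380.0 and 333 CPM, and neither dose was called. This was the 1 member call at 6 mg/kg kept with plate row as a covariate.

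Probe 72676 of Ftl1 read 66.6, 66.1, 78.5 and 64.8 CPM in controls and 134, 147, 152 and 193 CPM at 6 mg/kg, again without overlap. Its log2 change was 1.18 (SE 0.21, edgeR adjusted p = 0.000529), or 2.27-fold. At 3 mg/kg it read 82.0, 87.8, 90.3 and 195 CPM, and the highest was dose_3 replicate 4. All 4 lay above the controls, but the change of 0.72 (SE 0.21, adjusted p = 0.106) did not pass. It was 0.33 (adjusted p = 0.16) without the libraries that stood apart, and 0.89 (adjusted p = 0.0403) without dose_3 replicate 1. From 3 to 6 mg/kg this probe changed by 0.46 (SE 0.21, adjusted p = 0.188), and by 0.87 (adjusted p = 0.000305) without dose_3 replicate 4. Both probes of Ftl1 thus rose at 6 mg/kg, and without that library both were also called higher at 6 than at 3 mg/kg.

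Fth1 (chr19:9980598-9985098, plus strand) read 779, 728, 694 and 737 CPM at probe 76880 in controls and 954, 1058, 1047 and 884 CPM at 6 mg/kg. The groups did not overlap. Means of 735 ± 35.0 CPM in controls and 986 ± 82.2 CPM at 6 mg/kg (SD, n = 4) gave a log2 change of 0.42 (SE 0.13, edgeR adjusted p = 0.0212), or 1.34-fold. At 3 mg/kg it read 764, 921, 867 and 650.2 CPM and the change of 0.12 (SE 0.13, adjusted p = 0.734) was not called. At 0.03 and 0.3 mg/kg it read 578 to 736 CPM and 627 to 736 CPM.

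The call of Fth1 at 6 mg/kg was lost without control replicate 2 (0.42, adjusted p = 0.0524), without dose_6 replicate 2 (0.39, adjusted p = 0.0625), without a count filter (0.44, adjusted p = 0.0601) and with plate row (0.23, adjusted p = 0.618). Without the libraries that stood apart it was 0.49 (adjusted p = 0.000896). Both ferritin genes have processed pseudogene copies in the mouse genome, and nothing used here states how the authors' counting treated them. The rise is one of mRNA: the element in the 5' UTR of these genes acts on translation, which was not measured.

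Mt1 and Mt2, the metallothionein genes of liver, lie 5.51 kb apart on chromosome 8 (chr8:94179082-94180327 for Mt1 and chr8:94172664-94173568 for Mt2, both on the plus strand). Both were read at few counts by this probe set, so each value is coarse. The transcripts Mt1-201 and Mt2-201 were 62.7% identical over their alignment.

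Mt1 fell at 6 mg/kg. Controls held 19, 15, 19 and 15 counts at probe 29726 and livers at 6 mg/kg held 8, 6, 3 and 3 counts. All 4 lay below the controls, and replicates 3 and 4 were at the floor of 3 counts. In CPM the control mean was 2.12 ± 0.181 and that at 6 mg/kg 0.587 ± 0.314 (SD, n = 4), a log2 change of -1.85 (SE 0.46, 95% interval -2.81 to -0.90, edgeR adjusted p = 0.00692), or 3.61-fold lower.

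The other doses left Mt1 uncalled. It held 9, 16, 22 and 20 counts at 0.03 mg/kg, 21, 23, 20 and 14 at 0.3 mg/kg and 17, 11, 16 and 5 at 3 mg/kg, where the low value was that of dose_3 replicate 4. The log2 change at 3 mg/kg was -0.39 (SE 0.41, adjusted p = 0.746). From 3 to 6 mg/kg it was -1.46 (SE 0.47, adjusted p = 0.0645), and it passed without dose_3 replicate 4 (-1.80, adjusted p = 0.00452), without dose_6 replicate 1 (-1.80, adjusted p = 0.0393) and in DESeq2 (-1.49, adjusted p = 0.0354). With plate row as a covariate the change at 6 mg/kg was -1.48 (adjusted p = 0.307). Probe 76728 of Mt1 held 9 counts in the 4 controls together and 3 at 6 mg/kg, too few to follow the fall.

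Mt2 did not fall with Mt1 at 6 mg/kg. Probe 76492 held 62, 21, 8 and 25 counts in controls and 28, 29, 28 and 34 at 6 mg/kg. The controls spanned the whole treated range, while the 6 mg/kg livers lay close together at 3.40 ± 0.0943 CPM (SD, n = 4) against 3.70 ± 2.89 CPM. The log2 change was -0.11 (SE 0.40, 95% interval -0.95 to 0.73, edgeR adjusted p = 0.867). Its sign rests on control replicate 1, with 62 counts: without that library it was 0.56 (adjusted p = 0.316). From 3 to 6 mg/kg Mt2 changed by 0.48 (SE 0.42, adjusted p = 0.525), which did not pass, though all livers at 6 mg/kg lay above those at 3 mg/kg.

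At 0.3 mg/kg Mt2 held 15, 21, 14 and 9 counts, a log2 change of -1.33 (SE 0.43, adjusted p = 0.453) that did not pass over all probes. Without control replicate 1, which held 62 counts, it was -0.66. At 0.03 mg/kg it held 31, 41, 19 and 17 counts and at 3 mg/kg 18, 23, 16 and 21, and neither passed. Probe 29727 of Mt2 held 3 counts over all libraries. Whether Mt1 and Mt2 differ in their change at 6 mg/kg was not tested.

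**Figure D4:**
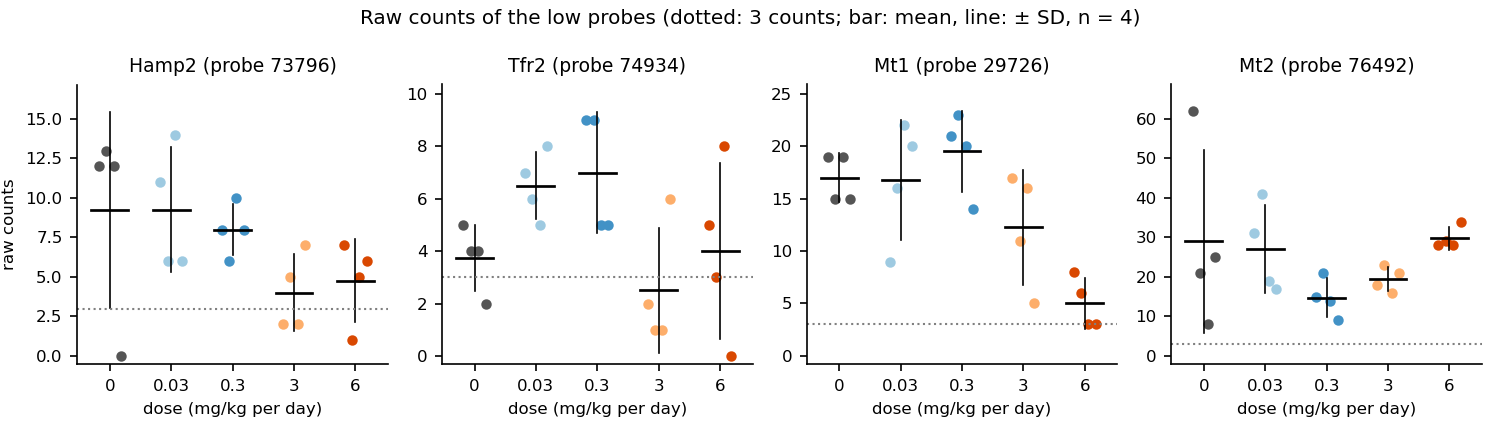
Raw counts at the low probes of Hamp2, Tfr2, Mt1 and Mt2 against dose in mg/kg per day; points are mice, bars the group mean, lines ± SD (n = 4) and the dotted line 3 counts. Mt1 held 15 to 19 counts in controls and 3 to 8 at 6 mg/kg, and Mt2 held 8 to 62 and 28 to 34.

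Other genes of iron and metal handling were read at the main probe of each gene, the one with the highest mean count, where 20.5% of all genes were called at 6 mg/kg. Of 14 tested genes of iron transport and storage outside the members, 2 rose and 1 fell, with a median log2 of 0.21 beside -0.02 over all genes. Slc25a37, mitoferrin, which carries iron into mitochondria, rose from 10.6 ± 2.72 to 30.8 ± 6.04 CPM, a log2 of 1.54 (SE 0.22, edgeR adjusted p = 4.7e-05). Slc46a1, a folate and heme carrier, rose by 2.14 (SE 0.70, adjusted p = 0.0361). Its means were 0.539 ± 0.402 CPM in controls, near the floor, and 2.45 ± 2.19 CPM at 6 mg/kg, a wide spread. Trf, transferrin, the plasma carrier of iron, fell by 0.64 on the log2 scale (SE 0.13, adjusted p = 0.00168), from 4119 ± 99.3 to 2645 ± 188 CPM, while its other probe was at -0.39 and did not pass. Slc11a2, the iron importer DMT1, rose at a further probe, by 0.86 (SE 0.22, adjusted p = 0.00837), while its main probe was at 0.39 (SE 0.27, adjusted p = 0.318). Pcbp1, an iron chaperone, was at 0.43 (SE 0.16, adjusted p = 0.0639). The genes of the iron regulatory proteins, Aco1 at 0.27 (SE 0.22) and Ireb2 at -0.05 (SE 0.15), were not called.

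Of 6 tested genes of heme and hemoglobin salvage 1 rose, Blvrb, biliverdin reductase B, at 0.97 (SE 0.18, adjusted p = 0.000784), and 3 rose without the libraries that stood apart. Other probes of this list were called too: 1 of Hp, haptoglobin, rose by 1.04 (SE 0.23, adjusted p = 0.00317), and 2 of Blvra, biliverdin reductase A, fell, at -1.68 (SE 0.45, adjusted p = 0.012) and -1.03 (SE 0.25, adjusted p = 0.00557). The main probes of Hp and Blvra, at 0.20 (SE 0.19) and -0.37 (SE 0.19), did not pass. Hpx, hemopexin, was at 0.40 (SE 0.20, adjusted p = 0.158). The median of the list was 0.02, and 20.5% of all genes were called at their main probe.

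Of 15 tested genes of the BMP-SMAD pathway, which drives Hamp, 1 was called higher and 2 lower at 6 mg/kg. That is near the 20.5% called over all genes, and the median log2 was 0.02. Hfe, a hepcidin regulator mutated in hereditary hemochromatosis, rose by 1.11 (SE 0.15, edgeR adjusted p = 2.79e-05), from 19.6 ± 1.68 to 42.4 ± 7.92 CPM. Bmp2, a ligand made mainly by liver endothelial cells, was at -0.71 (SE 0.18, adjusted p = 0.00788), and Acvr2a, a receptor, at -0.55 (SE 0.15, adjusted p = 0.0131); both fell. The ligand Bmp6 was at 0.19 (SE 0.43) and the feedback inhibitor Smad7 at 0.02 (SE 0.38), at 1.42 and 2.36 CPM in controls, and neither was called. Hfe2, hemojuvelin, a BMP co-receptor, was at 0.49 (SE 0.18, adjusted p = 0.0608) at its main probe. Its other probe was at -0.43 (SE 0.52, adjusted p = 0.587). Tmprss6, the protease that restrains hepcidin by cutting hemojuvelin, was at -0.05 (SE 0.22, adjusted p = 0.894) at its main probe, while its other probe rose by 1.99 (SE 0.49, adjusted p = 0.00697). Endothelial markers, given beside Bmp2, had 1 of 7 higher and 0 lower, and summed to 202 to 259 CPM in controls and 197 to 285 CPM at 6 mg/kg.

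Genes of IL-6 and STAT3 signalling and the acute phase, the other input to Hamp, went both ways. Of 12 tested, 2 were called higher and 5 lower, where 20.5% of all genes were called, and the median was -0.39. Orm2, an orosomucoid, rose by 3.03 (SE 0.36, edgeR adjusted p = 9.35e-06) and Lcn2, lipocalin, which binds iron-carrying siderophores, by 1.31 (SE 0.45, adjusted p = 0.0476). The fibrinogen genes Fga, Fgb and Fgg were at -0.98 (SE 0.16), -1.18 (SE 0.23) and -0.90 (SE 0.26) and fell. Among other probes of Fga, 1 fell at -0.54 and 1 did not pass at 0.56, and the other probe of Fgg was at -0.17 (adjusted p = 0.455). Lbp, which binds bacterial lipopolysaccharide, rose at its other probe by 0.61 (SE 0.21, adjusted p = 0.0431), with the main probe at -0.42 (SE 0.18, adjusted p = 0.103). Stat3 itself was at -0.58 (SE 0.21) and 0.59 (SE 0.27) at its probes, and neither passed. The receptor Il6st at -0.36 (SE 0.10, adjusted p = 0.0195) and the kinase Jak2 at -0.45 (SE 0.15, adjusted p = 0.0411) also fell. Markers of lymphocytes and neutrophils beside them had 1 of 5 higher, S100a8 at 4.92, and 2 lower, with a median of -1.06. Their summed level was 5.61 to 13.0 CPM in controls and 36.9 to 61.0 CPM at 6 mg/kg, of which S100a8 alone made a mean of 1.53 CPM and 46.9 CPM. Their part in these values was not tested.

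The inputs to the metallothionein genes were read by 2 lists, where 20.5% of all genes were called at 6 mg/kg. Of 10 tested genes of zinc transport and MTF1, 1 rose at 6 mg/kg, the zinc importer Slc39a10 at 0.63 (SE 0.18, edgeR adjusted p = 0.017), and the median was 0.01. The zinc exporters and carriers Slc30a7 at -0.42 (SE 0.15, adjusted p = 0.0574), Slc30a5 at -0.38 (SE 0.19) and Slc39a1 at -0.67 (SE 0.34) did not pass. Slc30a1, a zinc exporter that is a target of MTF1 like Mt1, was at -0.26 (SE 0.15, adjusted p = 0.215), and Mtf1 itself at 0.41 (SE 0.26, adjusted p = 0.267). Without the libraries that stood apart 1 rose and 1 fell. Of 8 tested glucocorticoid targets 2 rose, Fkbp5 at 1.19 (SE 0.30, adjusted p = 0.00803) and Tat at 1.20 (SE 0.34, adjusted p = 0.0162), and 0 fell, with a median of -0.02. The other probe of Fkbp5 was at 0.55 (SE 0.48, adjusted p = 0.431). Tat, also listed as a hepatocyte marker, did not follow the dose. Its means were 2.67 CPM in controls and 7.15, 5.57, 2.17 and 6.21 CPM at 0.03, 0.3, 3 and 6 mg/kg. Tsc22d3 at -0.37 (SE 0.21) and, at its other probe, -0.54 (SE 0.21, adjusted p = 0.07) and Klf9 at -0.49 (SE 0.26, adjusted p = 0.188), other such targets, did not pass. Among 9 tested stellate cell markers, 1 rose and 5 fell at 6 mg/kg, with a median of -0.72. Their summed level over 15 probes was 274 to 327 CPM in controls and 158 to 215 CPM at 6 mg/kg. The part of these cells in the member values was not tested.

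**Figure D5:**
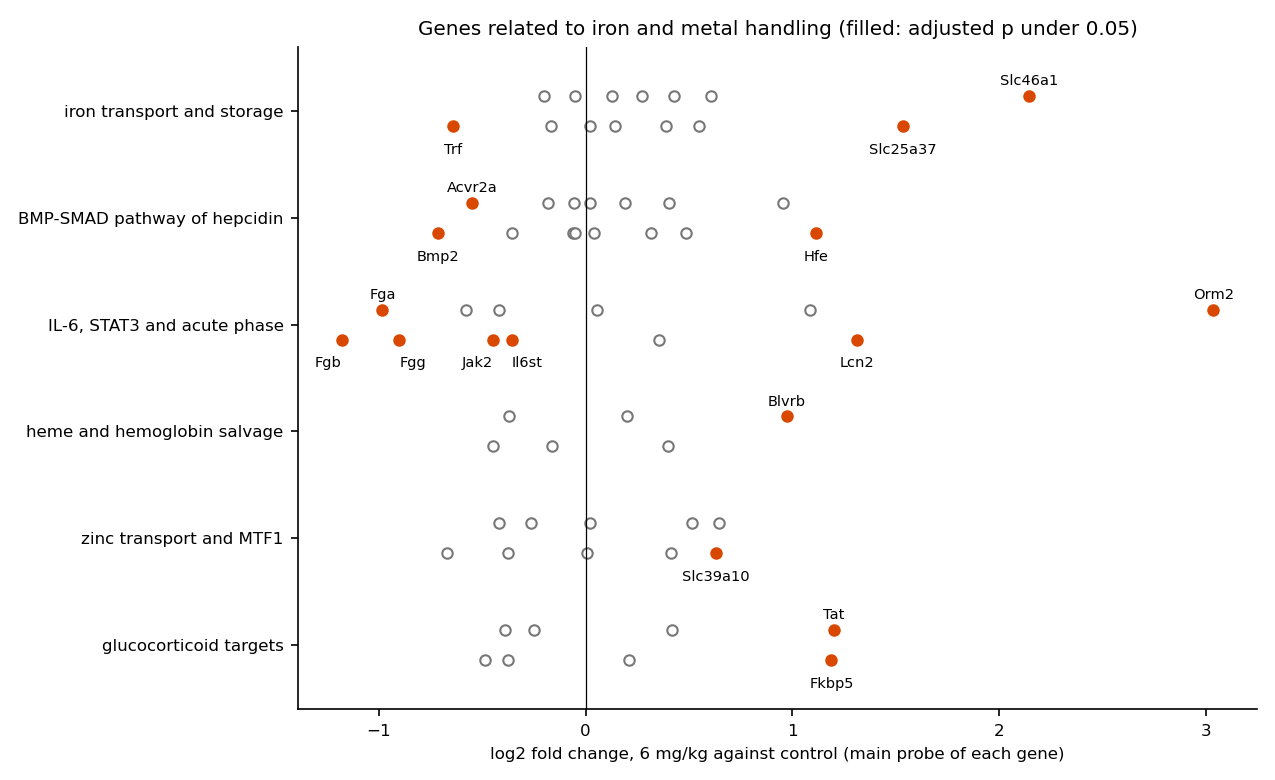
Log2 fold change at 6 mg/kg against control at the main probe of genes related to iron and metal handling, 1 point per gene and 1 row per list; filled points are called (edgeR adjusted p under 0.05). Orm2 at 3.03, Slc46a1 at 2.14 and Slc25a37 at 1.54 lie farthest to the right, and Fgb at -1.18 farthest to the left.

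The 3 and 6 mg/kg groups lay in 1 plate row but in different columns. From 3 to 6 mg/kg, 10 of the 65 tested genes of these 6 lists were called, where 6.96% of all genes were. Those called against control at 6 mg/kg that moved again were Slc25a37 at 0.78 (SE 0.21), Blvrb at 0.75 (SE 0.18), Hfe at 0.74 (SE 0.15), Orm2 at 1.54 (SE 0.34) and Tat at 1.54 (SE 0.35), which rose, and Bmp2 at -0.83 (SE 0.18), Acvr2a at -0.57 (SE 0.15), Fga at -0.72 (SE 0.16) and Fgb at -0.94 (SE 0.23), which fell. Pcbp1, the iron chaperone, also rose, at 0.54 (SE 0.16, edgeR adjusted p = 0.0466), as did the further probe of Slc11a2 at 0.74 (SE 0.22, adjusted p = 0.0456).

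At 3 mg/kg against control, 1 of the 65 was called, where 1.53% of all genes were. It was Orm2 at 1.49 (edgeR adjusted p = 0.0357), and the call was lost without the libraries that stood apart. At 0.03 and 0.3 mg/kg, 0 of them were called.

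As a description of which other genes followed the members most closely, probes with a mean of at least 20 CPM were ranked by Pearson's r of log2 CPM over the 20 libraries, among 4584 candidates. The libraries share the dose groups, so such r largely reflect the steps between groups. Nudt7 (r = 0.953), Mbl1 (r = 0.946) and Sult2a8 (r = 0.9355) were most like Hamp. Ugdh, Lpin2 and Elovl6, each at r = 0.955, were most like Tfrc. Rarres2 (r = 0.889), Mup3 (r = 0.889) and Washc3 (r = 0.866) were most like Mt1, and Rnf217 (r = 0.809), Abcg8 (r = 0.782) and Unc93b1 (r = 0.734) most like Slc40a1.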

How the data were processed

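Liver RNA of 20 mice was read with TempO-Seq. The authors deposited raw counts per probe, with 1 column per mouse; per the submitters' processing notes, Bowtie and build GRCm38.p5 were used, while version and counting settings were not stated in what was used here. Per the labels' protocols each library is a separate animal. Groups were read from the labelled dose, and replicate numbers follow accession order and pair no samples.

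Probes were kept by filterByExpr in edgeR 4.0.16 (R 4.3.3), scaled by TMM, and fitted to all 20 libraries by the robust quasi-likelihood test with 1 mean per group. Each of 5 comparisons had its p-values adjusted over 14122 probes (Benjamini-Hochberg, threshold 0.05). Total counts ran from 6823518 to 10310931 per library; amplified reads are not independent molecules, so floors cover counting error only. No pair of libraries of a group agreed within sampling noise (lowest chi-square per degree of freedom 3.83).

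Alternatives were other scalings and filters, DESeq2 1.42.0, fits on 8 libraries, plate row as a covariate, probes summed per symbol, and libraries left out. The counts of other lists without the libraries that stood apart were added after seeing the data. On simulated data for 6 mg/kg against control (13603 probes, 50 changed at each fold), the test recovered 4% of 1.5-fold, 52% of 2-fold and 96% of 4-fold rises. It recovered 44% of changes to 0.5-fold. A far smaller share of probes was changed there than the 20.3% called in the data, so these shares do not give the recovery in the data.

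The members and the gene lists were chosen with earlier results of these data known. The text names every member probe, up to 4 probes per other list with the smallest p at 6 mg/kg, defining cell markers, and the 3 probes most like Hamp, Tfrc, Mt1 and Slc40a1. Pcbp1, Aco1, Ireb2, Hpx, Hfe2, Bmp6, Smad7, Il6st, Jak2, Lcn2, Stat3, Lbp, Slc30a1 and Mtf1, and further probes of named genes, were named after their values were seen. Genes are placed by GENCODE M21 (GRCm38), promoters by RefSeq (GRCm38.p6), and sequences are of the C57BL/6J reference, not of Balb-C. Alignments used Biopython 1.88. Probe sequences were not used here.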

Additional observations from a re-analysis of the deposited data

Results flagged for a closer look

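In 8 of 60 sets of 4 mice of 1 group at 1 tested member probe, 1 library lay far from the other 3 (a gap above Dixon's critical value); chance gives about 1 in 20. Probe 70410 of Ftl1 had dose_0.03 replicate 4 high at 413 CPM, against 329 CPM for the next, and dose_0.3 replicate 4 low at 333 CPM, against 376 CPM. At probe 72676 of Ftl1, control replicate 3 read 78.5 CPM (next 66.6), dose_0.03 replicate 4 read 85.7 CPM (next 68.8) and dose_0.3 replicate 1 read 76.8 CPM (next 68.3). At the same probe dose_3 replicate 4 read 195 CPM (next 90.3), which is the library that decides the size of its change at 3 mg/kg. Slc39a14 stood out in dose_3 replicate 4 at probe 63214, with 80.2 CPM (next 64.9), and in dose_6 replicate 4 at probe 79940, with 41.5 CPM (next 18.1). Of the 8 values, 3 came from the 2 libraries that stood apart over all probes.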

How the results depend on the processing

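No paired analysis was possible because the labels give no replicate numbers. Over 28 alternatives, 1601 of 1665 log2 changes of member probes kept direction and side of the threshold. Scaling by total counts moved the median of all probes to 0.16, 0.04, 0.15 and 0.14 at 0.3, 3 and 6 mg/kg and for 6 against 3 mg/kg, and at 6 mg/kg it gave 70% higher calls (1894 higher, 811 lower) against 57% (1634 and 1233), and for 6 against 3 mg/kg 77.1% (670 and 199) against 58.8% (559 and 391). Low counts limited Hamp2, Tfr2, Mt1 and Mt2. In the same libraries the probes of a gene differed, with 480 and 3 counts in all for Mt2 and 282 and 29 for Mt1. The reason for the low counts was not tested.

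Member probes called went from 1 to 0 at 3 mg/kg with 8 libraries and with plate row, from 6 to 1 at 6 mg/kg with plate row, and from 3 to 0 between 3 and 6 mg/kg with 8 libraries. Leaving out 1 library gave 0 to 2, 5 to 7 and 2 to 5. Over all probes, DESeq2 called 2, 28, 387 and 1439 at 0.03, 0.3 and 3 mg/kg and for 6 against 3 mg/kg, and 8 libraries called 4, 44 and 11 at 0.3 and 3 mg/kg and for 6 against 3 mg/kg. Plate row gave 1 at 3 mg/kg and 508 at 6 mg/kg. Without the libraries that stood apart the counts were 1, 379 and 2478 at 0.03 and 3 mg/kg and for 6 against 3 mg/kg. Leaving out 1 library gave 0 to 1 at 0.3, 124 (control replicate 1) to 279 (dose_3 replicate 1) at 3, 2120 (control replicate 4) to 4461 (dose_3 replicate 4) at 6, and 302 (dose_3 replicate 1) to 3105 (dose_3 replicate 4) for 6 against 3 mg/kg. The causes were not tested.

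Changes that reversed were all uncalled. By total counts they were Mt1 (0.016) and Fth1 (0.012) at 0.3, Mt2 (0.040) and Slc40a1 probe 77971 (0.055) at 6, and Slc40a1 probe 74363 (0.084) for 6 against 3 mg/kg. With plate row they were Tfrc at 0.3 (-0.083), Mt2 (0.063) and Fth1 (-0.069) at 3, and Mt2 (0.54) and Slc39a14 probe 79940 (-0.032) at 6 mg/kg. Without the libraries that stood apart they were Slc39a14 probe 79940 at 6 (-0.32) and Slc40a1 probe 77971 for 6 against 3 mg/kg (-0.24). Leaving out 1 library, at 0.03 mg/kg Mt2 ran from -0.70 to 0.31, Slc40a1 probe 77971 from -0.26 to 0.018, Hamp2 from -0.61 to 0.076, and Ftl1 probes 70410 and 72676 from -0.030 to 0.12 and from -0.040 to 0.12. Likewise Tfrc at 0.3 ran from -0.073 to 0.23, Ftl1 probe 72676 at 0.3 from -0.017 to 0.090, Mt2 at 3 from -0.92 to 0.10, Mt2 at 6 from -0.45 to 0.56, Slc40a1 probe 77971 at 6 from -0.41 to 0.034 and Slc39a14 probe 79940 at 6 mg/kg from -0.35 to 0.25. For 6 against 3 mg/kg, Hamp2 ran from -0.11 to 0.47, Slc40a1 probes 74363 and 77971 from -0.060 to 0.0040 and from -0.21 to 0.23, and Slc39a14 probe 79940 from -0.68 to 0.11.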
